A study of Danio rerio with 3 samples.

Results

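The zebrafish genes cpa5 and il4 were chosen by name, 2 of the 14428 genes in the expression table, because earlier results of the same data had shown both to be high in one sorted population. Their values are therefore a description, and none was tested. The cells came from about 1000 embryos at 72 hours post fertilization, wild-type and untreated, that all carried both an mpeg1:mCherry transgene, which marks macrophages, and an mpx:EGFP transgene, which marks neutrophils. Flow sorting gave at least 50000 cells for each of 3 populations, namely cells positive for EGFP alone, cells positive for mCherry alone and double-negative cells, which showed neither colour, and cells with both colours were not collected. Each population was pooled over embryos and gave 1 library, so no value has a replicate error and no p-value is given.

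The gene cpa5 encodes carboxypeptidase A5, a secreted zinc metalloprotease that trims amino acids from the C-terminal end of peptides. In zebrafish it has been used as a marker of mast cells, granulocytes that store proteases and release them when activated, and in mammals a related enzyme, carboxypeptidase A3, is a component of mast cell granules. The gene il4 is named for interleukin-4, a secreted cytokine of type 2 immunity. In mammals interleukin-4 is made by helper T cells, basophils, eosinophils and mast cells. It acts on cells that carry the interleukin-4 receptor and signal through STAT6. A population selected on an mpx reporter is defined by that reporter and not by cell type. A bulk library from it therefore cannot say which cells within it carried either transcript. Fewer cells of a type and less RNA per cell cannot be told apart.

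The sort was read from the genes whose promoters drive the reporters. Levels are given in FPKM, the number of sequenced fragments for each kilobase of a transcript after scaling to the size of the library. The myeloperoxidase gene mpx stood at 12480 in EGFP+ cells, 55.8 in mCherry+ cells and 3.10 in double-negative cells. The macrophage gene mpeg1 stood at 9.92, 1396 and 2.84 in the same order. Each was highest in the library labelled with its reporter. The FPKM sums were 696949 for EGFP+, 571639 for mCherry+ and 356886 for double-negative cells, and read depth was not recovered from the values, so no counting interval or detection limit can be given. The proteasome gene psmd7, which every cell uses, was listed at 0 in all 3 libraries. The cyclophilin gene ppiaa was listed at 0 in EGFP+ and mCherry+ cells and at 6.18 in double-negative cells. Whether ppiaa is truly absent from the reporter cells was not tested. A listed 0 is therefore reported as such and not read as an absent or low transcript.

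The FPKM of the metalloprotease gene cpa5 was 1556.6 in EGFP+ cells, 5.19 in mCherry+ cells and 17.4 in double-negative cells. It was the 57th highest of 14428 genes in the EGFP+ library, 2929th in the double-negative library and 6852nd in the mCherry+ library. The EGFP+ level was 299.7-fold the mCherry+ level and 89.3-fold the double-negative level, both as plain FPKM ratios. The order of the libraries was thus EGFP+, double negative and mCherry+, with the last pair separated by a ratio of 3.36, for which there is no replicate spread to compare.

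The FPKM of the cytokine gene il4 was 430.2 in EGFP+ cells and 1.51 in mCherry+ cells, and double-negative cells had a listed value of 0. It ranked 251st of 14428 genes in the EGFP+ library and 9782nd in the mCherry+ library. The EGFP+ level was 285.4-fold the mCherry+ level. No fold is given against a value listed at 0. Of all 14428 genes, il4 was one of 9 whose FPKM reached 100 in EGFP+ cells while double-negative cells had a listed 0; the others included the myeloid transcription factor gene spi1b (391.4), the actin regulator gene gmfg (414.4) and the TNF-family ligand gene tnfsf18 (154.7). Of these 3 genes, spi1b and gmfg also reached 191.9 and 103.9 in the mCherry+ library, whereas tnfsf18 had 2.21. Since il4 was chosen for its high EGFP+ level, nothing is read from its being among the 9. The listed 0 of these genes is not read as a low level either.

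**Figure D1:**
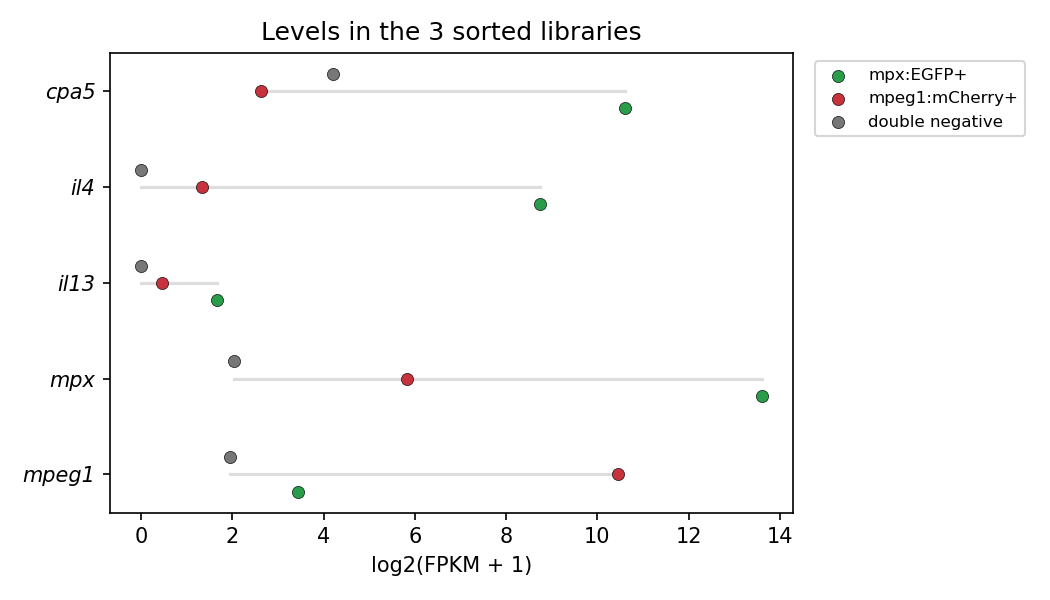
Levels of cpa5, il4, the related cytokine gene il13 and the reporter genes mpx and mpeg1 in each library, as log2(FPKM + 1); each point is 1 library. For cpa5 and il4 the EGFP+ point stands far to the right (FPKM of 1556.6 and 430.2), while il13 stays low in every library.

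To place both genes among all others, ratios were taken as log2 of (FPKM + 1) for the 12285 genes whose FPKM reached 1 in any library. Adding 1 understates the differences of genes with low values. For cpa5 the log2 ratio was 7.97 for EGFP+ over mCherry+ and 6.40 for EGFP+ over double negative. For il4 it was 7.43 for EGFP+ over mCherry+. Among the 12285 genes, cpa5 had the 2nd highest ratio of EGFP+ over mCherry+, between the lysozyme gene lyz (8.23) and mpx (7.78), and il4 had the 7th highest.

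A 4-fold ratio was used as a fixed size threshold. Of the genes compared, 8.53% were higher by 4-fold or more in EGFP+ than in double-negative cells, and 5.38% were lower by as much. These are 1048 higher and 661 lower genes, and lower genes outnumbered higher ones under each scaling tried, with 736 and 1284 after median-ratio scaling, 548 and 2225 with equal FPKM sums and 674 and 1506 after housekeeping scaling. Against mCherry+ cells, 3.34% were higher and 3.9% lower in EGFP+ cells by the same threshold. Both comparisons use the same EGFP+ library. In 281 genes (2.29%) the EGFP+ level passed this threshold against both other libraries, and by their EGFP+ level cpa5 was the 10th and il4 the 40th of them. Since both genes were chosen for this pattern, nothing is read from their being among the 281. The median ratio of well-expressed genes was shifted by 0.48 (log2) for EGFP+ over double negative and by 0.10 for EGFP+ over mCherry+; with that shift removed, cpa5 stood at 5.94 and 7.86 and il4 at 7.29 over mCherry+.

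**Figure D2:**
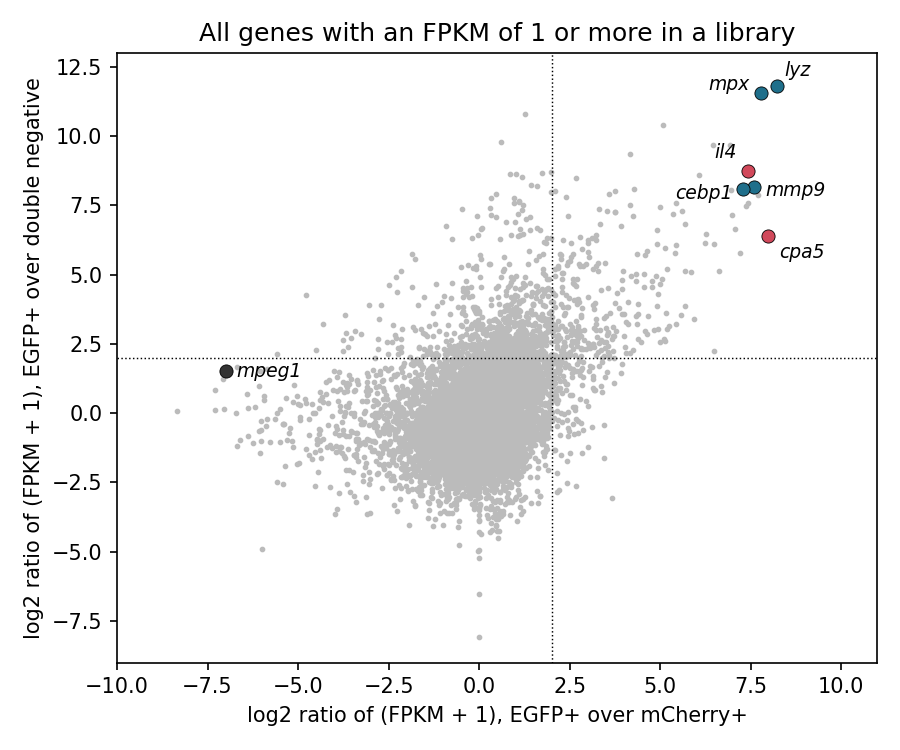
Each grey point is 1 of 12285 genes; the x axis gives the log2 ratio of (FPKM + 1) for EGFP+ over mCherry+ and the y axis the same for EGFP+ over double negative, and dotted lines mark 4-fold. The genes cpa5 (7.97 and 6.40) and il4 lie in the upper right with lyz, mpx, mmp9 and cebp1; the height of il4 depends on the 1 added to a value of 0.

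The 2 genes had like shares of their EGFP+ level in mCherry+ cells. In double-negative cells il4 was listed at 0, so the shares of the 2 genes are not compared there. In the mCherry+ library cpa5 stood at 0.334% of its EGFP+ level and il4 at 0.350%, so the ratio of cpa5 to il4 FPKM was 3.62 in the EGFP+ library and 3.45 in the mCherry+ library. Over 12 neutrophil genes of a marker list the same share ranged from 0.326% for lyz to 55.4% for the receptor gene csf3r, with a median of 4.74%, and 1 of the 12 was below either cpa5 or il4. The share of mpx itself was 0.447%. In the double-negative library cpa5 stood at 1.12% of its EGFP+ level. All 12 neutrophil genes were lower by this measure, from 0.0195% for lyz to 1.07% for lta4h, the leukotriene A4 hydrolase gene, with a median of 0.0978%. Of the 2 genes, cpa5 was thus the one listed above 0 in cells without a reporter. Of the 281 genes high in EGFP+ cells, 103 were higher in double-negative than in mCherry+ cells and 166 lower. In 38 of the 281, cpa5 included, the ratio between these libraries was at least as large as that of cpa5. Of the 281, 27 were listed at 0 in double-negative and 23 in mCherry+ cells. A listed 0 is not read as a low level, so the split into 103 and 166 rests in part on such values.

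**Figure D3:**
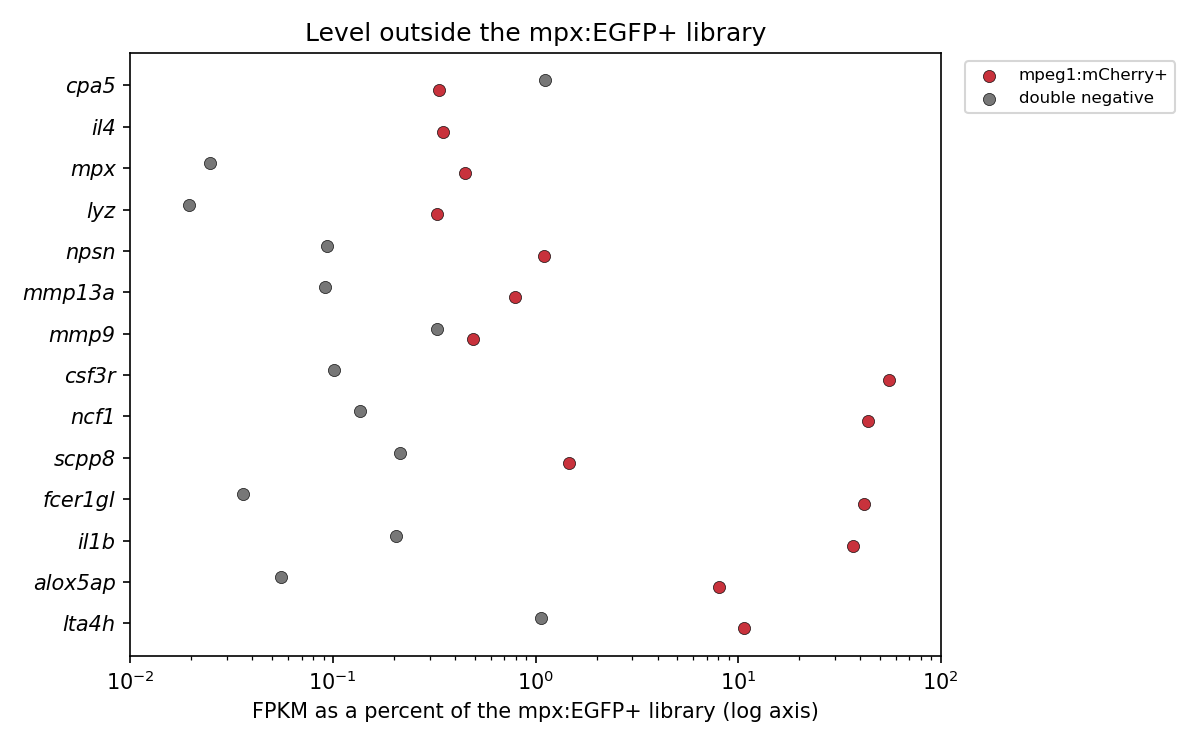
FPKM in the mCherry+ library (red) and the double-negative library (grey) as a percent of the FPKM in the EGFP+ library, on a log axis, for cpa5, il4 and 12 neutrophil genes. The grey point of cpa5 (1.12%) lies to the right of all other grey points, and il4 has none because it is listed at 0 there.

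Transcripts used to recognise mast cells did not all follow cpa5. Of 17 list entries, 13 were found and 11 passed the filter on low values. Without cpa5, 5 of 10 were at least 4-fold higher on FPKM + 1 in EGFP+ than in double-negative cells. By that measure none was 4-fold lower, and the median log2 ratio was 2.42 against −0.05 over all genes. Against mCherry+ cells 3 of the 10 passed 4-fold, all higher, with a median of −0.02 against 0.08 over all genes. Of all genes 8.53% were higher and 5.38% lower than in double-negative cells. Against mCherry+ cells these shares were 3.34% and 3.9%. In mCherry+ against double-negative cells 4 of the 10 were also at least 4-fold higher, namely srgn, alox5ap, fcer1gl and fcer1g, and none lower. Of all genes 8.18% were higher and 7.36% lower in that comparison. The transcription factor and Kit receptor genes of the list were low. The transcription factor gene gata2a, needed for zebrafish mast cells, had an FPKM of 0.922 in EGFP+, 0.886 in mCherry+ and 4.01 in double-negative cells. The Kit receptor gene kita had 1.18, 1.76 and 5.30, and its paralog kitb had 0.562, 0.639 and 2.42. All 3 were thus highest in the double-negative library. As plain FPKM ratios, the double-negative level was 4.35-fold the EGFP+ level for gata2a, 4.49-fold for kita and 4.31-fold for kitb. These 3 genes passed 4-fold without the added 1 and did not with it. The transcription factor gene mitfa went the other way, with 1.67 in EGFP+, 3.38 in mCherry+ and 0.431 in double-negative cells. The histidine decarboxylase gene hdc, whose enzyme makes histamine, was between 0.229 and 0.264 in every library and did not pass the filter.

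The 5 other list members at least 4-fold higher in EGFP+ than in double-negative cells were srgn, alox5ap, fcer1gl, fcer1g and tph1b, and the first 2 and tph1b were also at least 4-fold higher than in mCherry+ cells. The proteoglycan gene srgn, whose product packs granule proteases, had an FPKM of 1263.6 in EGFP+, 93.6 in mCherry+ and 3.91 in double-negative cells. The gene alox5ap, which encodes the 5-lipoxygenase activating protein of leukotriene synthesis and also stands in the neutrophil list, had 275.1, 22.1 and 0.152. The Fc receptor gamma chain genes were high in both reporter libraries: fcer1gl, also a member of the neutrophil list, had 4832 in EGFP+ and 2011 in mCherry+ cells, and fcer1g had 107.3 and 202.9. In double-negative cells fcer1gl had 1.73 and fcer1g was listed at 0. The calls of fcer1g against double-negative cells thus rest on a listed 0, which is not read as a low level. The gene tph1b, which encodes a tryptophan hydroxylase, the enzyme of the first step of serotonin synthesis, stood at 45.1 in EGFP+, 1.19 in mCherry+ and 2.01 in double-negative cells. Its paralog tph1a stayed under 1 in all 3 libraries.

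Most signalling genes downstream of Fc receptors were higher in EGFP+ than in double-negative cells, and fewer of them were so in mCherry+ cells. Of 16 entries 11 were found, and 8 of them were at least 4-fold higher and 1 lower in EGFP+ than in double-negative cells, with a median of 3.45. The shares over all genes were 8.53% and 5.38%. In mCherry+ against double-negative cells 6 of the 11 were at least 4-fold higher, beside 8.18% of all genes. With 5 added to the FPKM instead of 1, these counts were 6 in EGFP+ and 4 in mCherry+ cells. Over all genes they were then 683 and 651. Against mCherry+ cells 1 was at least 4-fold higher, beside 3.34% of all genes. It was the adaptor gene lat, at 21.0 in EGFP+ and 1.13 in mCherry+ cells and listed at 0 in double-negative cells. The place of lat among the 8 rests on that listed 0. The tyrosine kinase gene syk had 83.8, 55.3 and 1.80 in EGFP+, mCherry+ and double-negative cells, and fyna, the 1 lower member, had 4.31, 4.73 and 21.6. Of the eosinophil and basophil list, 9 of 13 entries were found and 8 passed the filter. Of these, 4 were at least 4-fold higher in EGFP+ than in double-negative cells, beside 8.53% of all genes. They were cebpa, cebpb, cebp1 and csf2rb. The entries epx, prg2, il5ra and ccr3 were not found. Of the 8, only cebp1, a granulocyte C/EBP transcription factor gene, was also at least 4-fold higher than in mCherry+ cells (406.3 against 1.59), beside 3.34% of all genes. With 0.1 added to the FPKM instead of 1, 3 members of the list were. The genes cebpa, cebpb and csf2rb were at least 4-fold higher in mCherry+ than in double-negative cells too, beside 8.18% of all genes. The EGFP+ and mCherry+ levels were 99.0 and 137.9 for cebpa, 202.9 and 122.7 for cebpb, and 19.7 and 58.3 for csf2rb. The erythroid and eosinophil factor gene gata1a was at 1.60 in EGFP+, 0.179 in mCherry+ and 1.12 in double-negative cells.

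Among metallocarboxypeptidases cpa5 was the 1 member at least 4-fold higher in EGFP+ cells. Of 27 entries 12 were found and 10 passed the filter. Without cpa5, 0 of 9 were higher and 3 lower than in double-negative cells, with a median log2 ratio of −1.22. Of all genes 8.53% were higher and 5.38% lower, so 0 higher of 9 is no result about the list. The gene cpa5 itself was chosen for its high level in EGFP+ cells. The genes cpa4 and cpb1, of the pancreatic carboxypeptidase family, were not highest in EGFP+ cells: cpa4 was listed at 0 in EGFP+ cells against 2.92 in mCherry+ and 6.03 in double-negative cells, and cpb1 had 3.38, 5.44 and 36.9. The gene cpb2, which encodes a plasma carboxypeptidase made by the liver, was listed at 0 in EGFP+ cells and stood at 5.32 in double-negative cells. These were the 3 lower members, and the calls of cpa4 and cpb2 rest on a listed 0, which is not read as a low transcript. The basic-residue carboxypeptidase genes cpe, of peptide hormone processing (17.4, 7.62 and 40.8), cpm (2.23, 1.99 and 6.53) and cpn1 (7.06, 15.7 and 22.3) were also highest in double-negative cells. The tubulin deglutamylase gene agtpbp1, a cytosolic relative, had 28.9 in EGFP+, 7.75 in mCherry+ and 8.15 in double-negative cells.

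Of the genes next to cpa5 and il4, tes and kif3a did not share their high EGFP+ levels, and cpa1 was listed at 0 there. In the RefSeq gene order of assembly GRCz12tu, cpa5 lies between cpa1 and tes. The order in danRer7, the build named for these data, was not checked. Its neighbour and paralog cpa1 was listed at 0 in EGFP+ cells and stood at 0.241 in mCherry+ and 0.121 in double-negative cells, and tes, which encodes the focal adhesion protein testin, had 15.8, 7.54 and 4.86. Whether reads of related carboxypeptidase genes were divided between copies by the quantification was not tested. The exocrine pancreas list, which holds cpa1, cpa4 and cpb1 but not cpa5, had a summed FPKM of 84.6 in EGFP+, 42.8 in mCherry+ and 324.6 in double-negative cells over 15 genes found; 7 of them were listed at 0 in EGFP+ cells, and trypsin try had 32.5, 19.9 and 162.1. Of 11 members past the filter, 0 were at least 4-fold higher and 6 lower in EGFP+ than in double-negative cells. Some of the 6, such as cpa4, count as lower through a listed 0 in EGFP+ cells. The shares over all genes were 8.53% and 5.38%, and 3.34% and 3.9% against mCherry+ cells. Against mCherry+ cells 1 was at least 4-fold higher and 0 lower: the disulfide isomerase gene pdia2 had 24.6 in EGFP+, 0.651 in mCherry+ and 6.42 in double-negative cells. The part of pancreas RNA in the double-negative level of cpa5 was not tested. The kinesin gene kif3a, which adjoins il4 on one side, had 9.16 in EGFP+, 4.87 in mCherry+ and 8.52 in double-negative cells. No value was available for drd1a, on the other side of il4.

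The other type 2 cytokine gene found in the table, il13, was low in every library. Synonyms are il4/13b for il4, and il4/13a and IL-4 for il13. The names thus do not settle which gene matches mammalian interleukin-4. Its FPKM was 2.19 in EGFP+ and 0.366 in mCherry+ cells, with a listed 0 in double-negative cells, so that it had the same order of libraries as il4 at a far lower level. The other 5 ligand entries, il5, il9, il25, il33 and tslp, were not analysed here.

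The receptor chain genes il4r and il13ra1 were highest in mCherry+ cells, where il4 and il13 were at 1.51 and 0.366. The gene il4r is named for the interleukin-4 receptor; which receptor paralog its row in the table stands for was not stated. It had an FPKM of 18.5 in EGFP+, 141.4 in mCherry+ and 38.6 in double-negative cells. Its level in mCherry+ was 7.65-fold that in EGFP+ and 3.66-fold that in double-negative cells. The gene il13ra1, which encodes a chain of the receptor for interleukin-13, had 4.50, 58.9 and 14.8, a mCherry+ level 13.1-fold that in EGFP+ cells. These 2 were the receptor members at least 4-fold lower in EGFP+ than in mCherry+ cells, and none was at least 4-fold higher. Of 14 entries 8 were found and 7 of them passed the filter. Of all genes 3.9% were as much lower and 3.34% higher. The median log2 ratio was −1.43 against 0.08 over all genes.

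Shared receptor chains had another pattern. The common gamma chain gene il2rga had 23.0 in EGFP+, 27.9 in mCherry+ and 0.322 in double-negative cells, and the common beta chain gene csf2rb had 19.7, 58.3 and 0.143. Both were at least 4-fold higher in each reporter library than in double-negative cells. Of all genes 8.53% were as much higher and 5.38% lower in EGFP+ cells. In mCherry+ cells these shares were 8.18% and 7.36%. The other members, il13ra2, il2rgb, il1rapl1a and tslpr, stayed under an FPKM of 5 in all libraries.

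**Figure D4:**
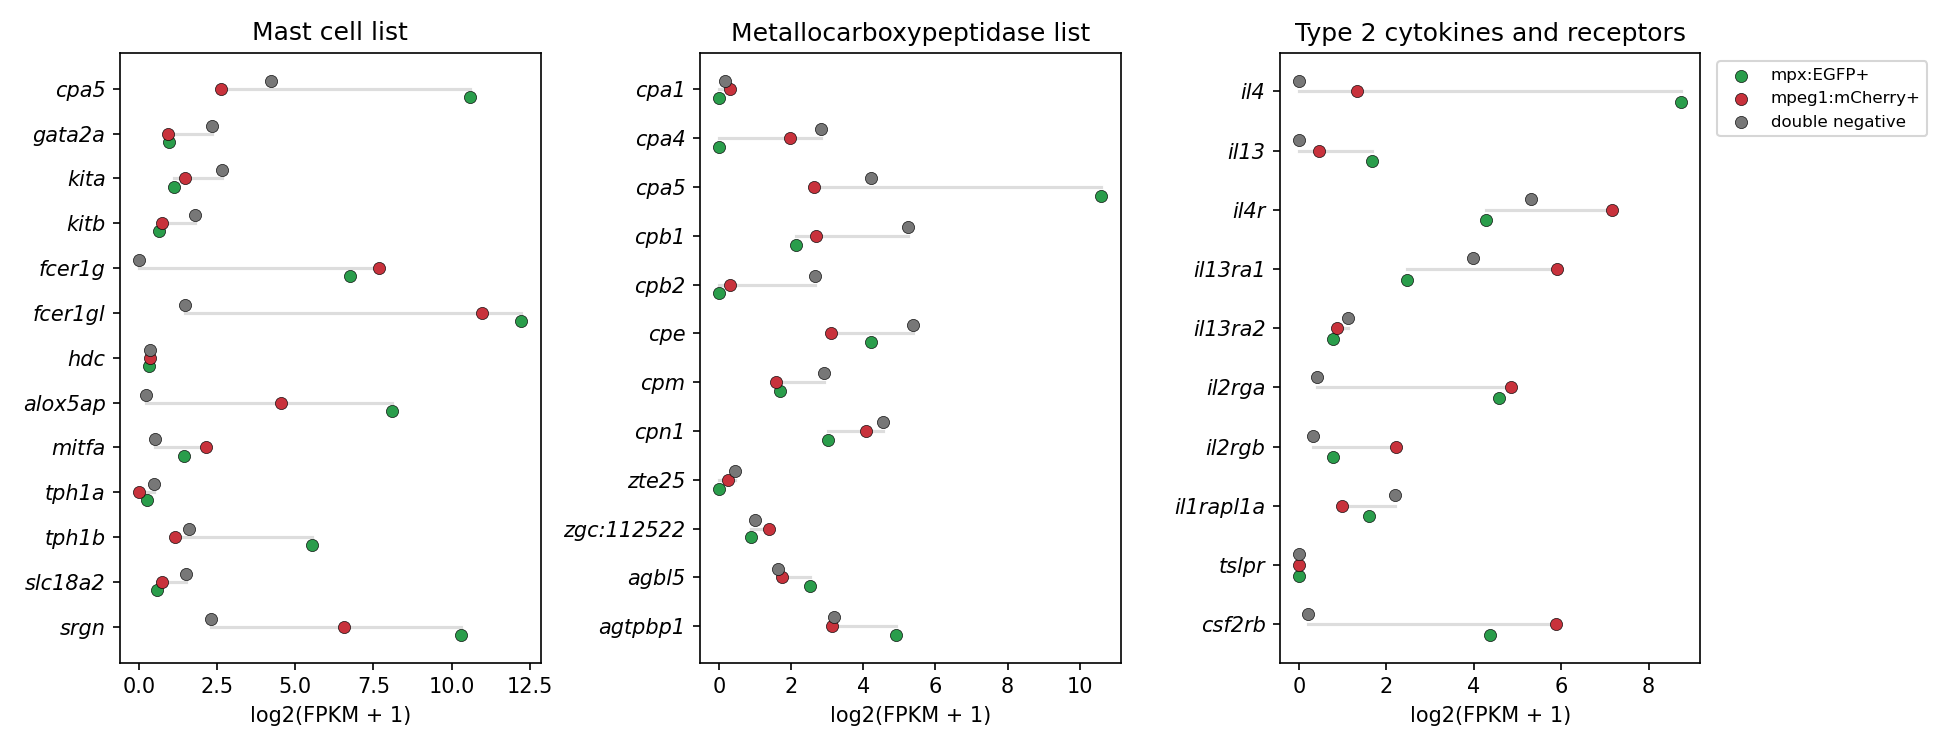
Levels as log2(FPKM + 1) of the found members of the mast cell list, the metallocarboxypeptidase list and the type 2 cytokine and receptor lists, 1 point per library. Within each panel cpa5 or il4 has a far right EGFP+ point. In the mast cell panel fcer1gl and srgn also have one, that of fcer1gl further right than that of cpa5, and gata2a, kita and kitb have none. The genes il4r and il13ra1 have their highest point in mCherry+ cells.

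In the list of signalling genes below the receptor, of 16 entries 12 were found and 11 passed the filter; 2 were at least 4-fold higher and 1 lower in EGFP+ than in double-negative cells, beside 8.53% and 5.38% of all genes, so these counts are no result about the list. The higher ones were the phosphatase gene ptpn6, an inhibitor of cytokine signalling (346.9 in EGFP+, 148.2 in mCherry+ and 0.916 in double-negative cells), and the kinase gene jak2b (35.2, 17.6 and 6.50). The kinase gene jak1 had 113.7, 150.3 and 36.0. The lower one was stat6, the transcription factor gene of the pathway, with 2.74 in EGFP+, 0.00166 in mCherry+ and 14.4 in double-negative cells; the value of 0.00166 is a fractional estimate, so no fold is given against it. The feedback inhibitor gene socs1a had 25.0 in EGFP+ against 5.97 in mCherry+ and 5.91 in double-negative cells. Of 13 regulators of type 2 cytokine genes found, of 20 entries, 12 passed the filter and 0 reached 4-fold in either direction between EGFP+ and double-negative cells. With the same shares over all genes, this count too is no result about the list. Among them gata3, which encodes the factor that opens the locus in mammalian T cells, had 5.72, 3.57 and 18.1, and mafa had 0.842, 16.7 and 1.42.

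Members of the T cell list had mixed levels, and lck, zap70, rag1 and cd8a were listed at 0 or under 1 in every library. Of 23 entries 14 were found and 5 passed the filter. The T cell kinase gene lck had 0.359 in EGFP+ cells and was listed at 0 in mCherry+ cells, zap70 and rag1 were listed at 0 in both, and cd8a had 0.388 and 0.187. Of the 5 members past the filter, ikzf1 and runx3 were at least 4-fold higher in EGFP+ cells than in either other library. Both are transcription factor genes that other blood cells also use. The gene ikzf1 had 45.3 in EGFP+, 8.55 in mCherry+ and 0.627 in double-negative cells, and runx3 had 34.7, 6.52 and 1.33. Of all genes 2.29% passed 4-fold against both other libraries. Against mCherry+ cells 0 members of the list did so with equal FPKM sums or a pseudocount of 5. The T-box factor gene eomesa, also expressed outside the blood, was the 1 member at least 4-fold lower in EGFP+ than in double-negative cells (0.712 in EGFP+, 1.43 in mCherry+ and 8.54 in double-negative cells). Of all genes 5.38% were as much lower. The receptor gene il7r had 1.97, 0.199 and a listed 0, and gata3, also of this list, had 5.72, 3.57 and 18.1. The summed FPKM of the 14 genes was 89.9 in EGFP+, 21.2 in mCherry+ and 30.3 in double-negative cells. The smaller lists for B cells (2 of 6 entries found) and thrombocytes (4 of 6 found) had 1 member each at least 4-fold higher in EGFP+ than in double-negative cells. These were the adaptor gene blnk (27.7, 65.0 and 0.126) and the coagulation factor gene f13a1b (54.1, 241.5 and 5.77), and both were highest in mCherry+ cells. Of all genes 8.53% were as much higher.

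Of 15 entries in the neutrophil list 12 were found. All 12 were at least 4-fold higher in EGFP+ than in double-negative cells and 8 of them than in mCherry+ cells. The shares over all genes were 8.53% and 3.34%. The summed FPKM was 46521 in EGFP+, 3340 in mCherry+ and 47.5 in double-negative cells. Of the macrophage list, 12 of 15 entries were found, with a sum of 937.2, 8208 and 18.8. Of these 12, 11 were at least 4-fold lower in EGFP+ than in mCherry+ cells, beside 3.9% of all genes. The exception was the cathepsin gene ctssb.1, at 782.8 in EGFP+ and 1094 in mCherry+ cells.

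The genes most like each member were found by the Euclidean distance between log2(FPKM + 1) values over the 3 libraries, each gene centred on its own mean, among 4414 named genes that reached an FPKM of 10 in EGFP+ cells. A centred pattern over 3 libraries has 2 free numbers, so nearness is a description. The 8 nearest to cpa5 were gra, prkcda, abcb9, ctssa, ch25hl2, sms, neu4 and samsn1b, at distances of 0.87 to 1.51. They include prkcda, a protein kinase C delta gene, with 486.1 in EGFP+, 3.94 in mCherry+ and 12.8 in double-negative cells, and sms, the spermine synthase gene, with 1145.9, 14.1 and 15.1. The gene gra, the nearest, had 319.8, 1.42 and 2.19.

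The 8 nearest to il4 were cebp1, mmp9, mmp13a, ctssa, scpp8, ch25hl2, npsn and tnfsf18, at distances of 0.49 to 1.37. Of these, mmp9, mmp13a, scpp8 and npsn stand in the neutrophil list, of which 12 genes were found, beside 4414 genes compared. The list was chosen with earlier results of these data known, and il4 for its high EGFP+ level. Nothing is therefore read from this overlap. The gelatinase gene mmp9 had an FPKM of 4036 in EGFP+, 19.9 in mCherry+ and 13.2 in double-negative cells, and the collagenase gene mmp13a had 3288, 26.0 and 3.02. The cathepsin S gene ctssa (325.3, 0.980 and 0.842) and ch25hl2 (209.0, 0.657 and 0.483), a relative of the cholesterol 25-hydroxylase gene, were near both members. By the same measure il4 was 20th from cpa5 and cpa5 was 18th from il4, at a distance of 2.18. In double-negative cells cpa5 had 17.4 and il4 a listed 0. That 0 entered every distance of il4 as a value, so these distances depend on the 1 added to it.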

How the data were processed

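RNA of 3 sorted zebrafish populations, 1 library each, was profiled after ribosomal RNA removal and low-input library preparation, per the labels' protocols. The authors deposited 1 table of FPKM values, as named by the table. The tools named in the submitters' processing notes are Cufflinks 2.2.1, TopHat2 2.0.11 and cutadapt, with build danRer7; their settings and the annotation were not stated. Since FPKM is relative to a library's size, very high genes lower all others in it. Steps of whole reads were searched among genes under an FPKM of 0.5; no step of 0.01 (log2) held more than 2.46% of them, so depth is unknown.

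Ratios, counts, lists and distances were computed with Python 3.11.15 and pandas 2.3.3, and the steps were tested on simulated data. The filter was an FPKM of 1 or more in a library, the pseudocount 1 and the size threshold 4-fold. Members, the 15 gene lists and rules were chosen with earlier results of these data known. Of 266 list entries, 186 were found, 13 by an older symbol. Of the table's gene IDs, 13895 matched RefSeq names. Named genes were both members, list members with an FPKM of 5 or more (beyond the mast cell, type 2 ligand and receptor and carboxypeptidase lists, up to 4 highest and 4 lowest), the 8 nearest genes, adjacent genes, mpx and mpeg1. Outside that rule, and chosen with their values known, were list members under an FPKM of 5 (gata2a, kitb, mitfa, hdc, tph1a, il13, il13ra2, il2rgb, il1rapl1a, tslpr, gata1a, lck, zap70, rag1, cd8a, il7r), further list members (csf3r, mafa, try), and spi1b, gmfg, psmd7 and ppiaa. One list gene is not reported here. Alternatives changed the pseudocount, filter, scaling or threshold.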

Additional observations from a re-analysis of the deposited data

How the results depend on the processing

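No paired analysis was possible because each group has 1 library and no replicate to leave out. A value was taken as moved when it shifted by more than the SD of 45 housekeeping genes' log2 ratios (0.88 for EGFP+ over double negative, 0.90 for EGFP+ over mCherry+ and 0.57 for mCherry+ over double negative), or a count by more than 1.5 times. Ratios of il4 to the double-negative library were not recomputed because it is listed at 0 there.

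The ratios of cpa5 and il4 kept their direction under every pseudocount and scaling. The ratio of il4 for EGFP+ over mCherry+ was 6.06 with a pseudocount of 5. With FPKM sums made equal, cpa5 was at 5.46 for EGFP+ over double negative and at −2.21, past 4-fold, for mCherry+ over double negative, against −1.57 as deposited. Of the nearest 8 genes, 5 were shared for cpa5 and 5 for il4 with a pseudocount of 0.1, and 5 and 4 with a pseudocount of 5; all 8 were shared under the filters and scalings.

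Counts over all genes moved more. For EGFP+ over double negative, the 1048 higher and 661 lower genes became 683 and 136 with a pseudocount of 5, 548 and 2225 with equal FPKM sums, 674 and 1506 with housekeeping scaling, 2609 and 3072 at 2-fold and 486 and 123 at 8-fold; lower genes were 1659 with a pseudocount of 0.1, 433 with a minimum FPKM of 10 and 1284 with median-ratio scaling. The share of calls that were higher, 61.3% as deposited, was 36.4% with median-ratio scaling, 19.8% with equal sums and 30.9% with housekeeping scaling. For EGFP+ over mCherry+, the 410 higher and 479 lower genes became 824 and 898 with a pseudocount of 0.1, 222 and 281 with 5, 1637 and 1473 at 2-fold and 178 and 217 at 8-fold. For mCherry+ over double negative, the 1005 higher and 904 lower genes became 651 and 212 with a pseudocount of 5, 669 and 1884 with equal sums, 2445 and 2959 at 2-fold and 480 and 172 at 8-fold; lower genes were 1951 with a pseudocount of 0.1, 600 with a minimum FPKM of 10, 1391 with median-ratio and 1437 with housekeeping scaling.

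Among lists, 2 mast cell genes were at least 4-fold lower in EGFP+ and 1 in mCherry+ than in double-negative cells, against 0 as deposited, both with a pseudocount of 0.1 and with equal sums. Lower metallocarboxypeptidases in EGFP+ against double-negative cells numbered 1 with a pseudocount of 5 or a minimum FPKM of 10 and 5 with equal sums; 1 was lower than in mCherry+ cells with a pseudocount of 0.1, and 1 was lower in mCherry+ than in double-negative cells with a pseudocount of 5. One type 2 receptor was lower in EGFP+ than in double-negative cells with equal sums, and 1 with housekeeping scaling. Outside the mast cell, metallocarboxypeptidase and type 2 receptor lists, 407 of the recomputed list counts stayed within 1.5 times and 55 moved. The cause of these shifts was not tested.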
